A study of Mus musculus with 12 samples.

Results

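The cytosolic ribosomal protein genes made up 81 of the 22310 genes counted in 12 RNA-seq libraries of mouse satellite cells, the stem cells of skeletal muscle. They were chosen by symbol: 84 genes carried a name formed from Rps, Rpl or Rplp and the number of the protein, and 3 of these were left out because they had under 10 reads over all libraries. The genes left out were Rpl26 and Rps27, each with 0 reads, and Rpl10l with 3 reads. Just inside the limit stood Rpl39l with 13 reads and Rps29 with 95 reads. The members comprised 30 proteins of the small subunit, 42 of the large subunit, 3 of the stalk and 6 paralogues, which are close relatives of a standard ribosomal protein. Fau and Gnb2l1, whose names do not follow the pattern, were not members.

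The libraries fell into 4 groups of 3: Hoxa9 knock-out (KO) mice that were old, wild-type (WT) mice that were old, young KO mice and young WT mice. Old mice were 22 to 28 months of age and young mice 3 to 4 months, and all were labelled C57BL/6. In every group the hindlimb muscles had been injured with 50 µl of 1.2% barium chloride, which destroys muscle fibres and activates satellite cells, given at about 20 points, and the cells were isolated 3 days later; no uninjured muscle was included. The labels give neither the part of Hoxa9 that was deleted, nor the cells in which it was deleted, nor whether a library came from a single animal. The p-values below therefore rest on library-to-library spread, which may be technical.

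Each ribosome is built from a small subunit, which reads the mRNA, and a large subunit, which joins the amino acids and threads the new chain through an exit tunnel. Most of their proteins are present in a single copy per ribosome, and an assembled ribosome needs nearly all of them. Their mRNAs mostly begin with a run of pyrimidines, the 5′ terminal oligopyrimidine tract, through which mTORC1 signalling controls their translation. Satellite cells that leave quiescence after injury enlarge and make more ribosomes. In the genome these genes are also accompanied by many processed pseudogenes, copies of the spliced mRNA, so that a read from such a gene can match several places.

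The coding sequences of 4 of these genes are shown because they span that problem, from a sequence mostly found nowhere else to one shared throughout. They come from the GENCODE M21 annotation of mouse build GRCm38, and capitals mark bases that lie in at least 1 stretch of 50 bases found in no other annotated gene.
Rps3, bases 1 to 300: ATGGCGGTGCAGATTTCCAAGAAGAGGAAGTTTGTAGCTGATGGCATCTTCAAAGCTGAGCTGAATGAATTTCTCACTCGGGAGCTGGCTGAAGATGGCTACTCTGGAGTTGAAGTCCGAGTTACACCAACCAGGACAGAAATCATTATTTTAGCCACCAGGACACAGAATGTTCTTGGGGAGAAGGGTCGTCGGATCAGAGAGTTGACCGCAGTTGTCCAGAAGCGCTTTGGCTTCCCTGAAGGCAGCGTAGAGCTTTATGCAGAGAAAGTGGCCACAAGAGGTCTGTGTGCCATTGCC
Rpl39: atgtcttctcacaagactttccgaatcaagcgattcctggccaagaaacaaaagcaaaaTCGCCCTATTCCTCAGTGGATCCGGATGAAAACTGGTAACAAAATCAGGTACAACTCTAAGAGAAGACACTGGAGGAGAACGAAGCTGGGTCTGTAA
Rpl41: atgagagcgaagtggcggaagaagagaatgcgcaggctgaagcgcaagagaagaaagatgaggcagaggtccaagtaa
Rps27: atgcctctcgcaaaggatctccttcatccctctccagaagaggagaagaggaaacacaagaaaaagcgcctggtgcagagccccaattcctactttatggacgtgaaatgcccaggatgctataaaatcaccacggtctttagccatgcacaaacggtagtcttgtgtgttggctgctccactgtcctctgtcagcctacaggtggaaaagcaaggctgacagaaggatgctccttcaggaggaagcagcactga
Rps3, a small-subunit protein that lines the mRNA entry channel, lies on chromosome 7; its first 300 of 732 coding bases are shown, and 91.9% of the 50-base stretches in the whole coding sequence were its own. Rpl39, a small basic protein of the exit tunnel, lies on chromosome X, and 97 of its 156 coding bases were in capitals. Neither Rpl41, a very short basic peptide of the large subunit encoded by 78 bases on chromosome 10, nor Rps27, encoded by 255 bases on chromosome 3, held a stretch of 50 bases of its own. The files assigned 0 reads to Rps27 in all 12 libraries.

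Sharing of sequence and counted level went together across the members. Level is given here as CPM, the count of a gene per 1000000 gene counts, scaled by trimmed mean of M-values (TMM), per kilobase of coding sequence and averaged over the 12 libraries. The 27 members without a stretch of 50 coding bases of their own had a median of 15.5 CPM per kb. The 31 members in which under 20% of the stretches were their own had a median of 120 CPM per kb, the 9 members with 20 to 50% a median of 631, and the 14 members with 50% or more a median of 760. Those 14 members held 50.5% of the CPM of all members. Over the 81 members the rank correlation of this level with the percentage of unshared stretches was 0.62 (Spearman's rho, across genes, which are not independent replicates).

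**Figure D1:**
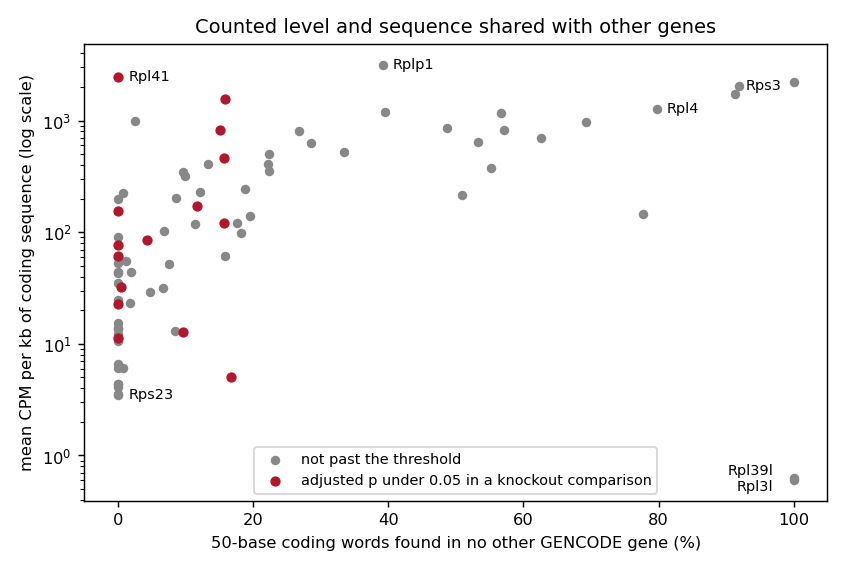
Each point is 1 of the 81 members; the x axis gives the percentage of 50-base stretches of its coding sequence that occur in no other GENCODE gene and the y axis, on a log scale, its mean CPM per kb of coding sequence over 12 libraries. Red points, the 15 members that differed between KO and WT at either age, all lie at 16.7% or less on the x axis, and most members at 50% or more lie above 100 CPM per kb.

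By level per kb of coding sequence the highest members were Rplp1 of the stalk, which helps recruit elongation factors, with 3169 CPM per kb, and Rpl41 with 2469. Others near the top were Rps3 with 2056, Rpl8, a protein of the peptidyl transferase region, with 1726, and Rpl39 with 1552. Reads outside the coding part were counted too, while the level was divided by the coding length alone. At the other end, Rpl3l, a paralogue of Rpl3 known from adult muscle fibres, had 0.603 CPM per kb although its whole coding sequence is its own. The members together took 1.35 ± 0.236% of the gene counts in old KO libraries, 1.71 ± 0.141% in old WT libraries, 1.61 ± 0.407% in young KO libraries and 1.74 ± 0.389% in young WT libraries (SD, n = 3 each). Single libraries ranged between 1.11% and 2.08%, and all groups overlapped, old KO and old WT narrowly, with the highest KO library at 1.59% and the lowest WT library at 1.55%. With Lars2 left out of the gene counts, the shares were 1.51 ± 0.174% in old KO libraries, 1.71 ± 0.142% in old WT libraries, 1.68 ± 0.393% in young KO libraries and 1.74 ± 0.390% in young WT libraries (SD, n = 3 each), and the share in old KO replicate 3 was 1.49% in place of 1.11%.

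The starts of the genes are shown next because a pyrimidine run there is what gives these mRNAs their name. The windows run from 40 bases before to 20 after the start of the RefSeq transcript on build GRCm38.p6, 5′ to 3′ on the gene's strand, and capitals mark the longest run of C and T that overlaps the 10 bases on either side of the start.
Rpl4, chr9:64173347-64173406 (+ strand): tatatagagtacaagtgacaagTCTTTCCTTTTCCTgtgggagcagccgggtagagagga
Rpl15, chr14:18270967-18271026 (- strand): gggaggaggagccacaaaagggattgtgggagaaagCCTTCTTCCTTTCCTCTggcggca
Rps6, chr4:86857348-86857407 (- strand): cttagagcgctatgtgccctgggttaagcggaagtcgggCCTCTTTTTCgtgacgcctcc
Rpl22l1, chr3:28805468-28805527 (+ strand): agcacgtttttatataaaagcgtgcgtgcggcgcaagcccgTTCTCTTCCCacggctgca
Rpl41, chr10:128549149-128549208 (- strand): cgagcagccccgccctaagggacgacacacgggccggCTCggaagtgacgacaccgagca
The run was 14 bases long in Rpl4, 17 in Rpl15, 10 in Rps6 and 10 in Rpl22l1, whereas Rpl41 had 3. RefSeq promoters were found for 61 members, with 73 starts. A run of 8 or more pyrimidines on the gene's strand overlapped that window at 29 of the 73 starts (39.7%), against 13.7% of the 32851 promoters in the table. CTTTT or CTTTC, read on the gene's strand within 20 bases of the start, occurred at 30.1% of member starts and 9.42% of all promoters. On the opposite strand the figures were 6.85% and 8.49%. A start listed by RefSeq can lie some bases from the start used in these cells, so a missing run says only that the letters are not in this window.

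The libraries differed in ways that followed genotype. Gene counts ranged from 4193433 to 20337015 per library. Hoxa9 itself had 6.46, 4.55 and 6.39 CPM in old KO libraries against 14.7, 15.7 and 22.5 CPM in old WT libraries (log2 fold change -1.63, adjusted p = 0.00235, edgeR's quasi-likelihood test). In young mice it had 7.21, 5.52 and 6.46 CPM in KO libraries against 7.96, 11.4 and 11.5 CPM in WT libraries (log2 fold change -0.67, adjusted p = 0.0671, edgeR), so that reads were present in every KO library. Lars2 took between 0.484% and 25.0% of the gene counts in KO libraries and between 0.0258% and 0.11% in WT libraries. Over 13270 genes the rank correlation of a library's level with transcript GC content lay between -0.54 and -0.14 in KO libraries and between 0.23 and 0.49 in WT libraries. All 12 satellite cell markers were counted in all 12 libraries, among them Pax7 at 169 to 397 CPM and Myod1 at 74.1 to 549 CPM. In bulk samples, fewer cells of a type and less RNA per cell cannot be told apart.

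Of the 81 members, 79 had enough reads to be tested; Rpl39l and Rps29 did not. Each comparison below was made in edgeR's quasi-likelihood test over all 12 libraries and 13540 genes, with Benjamini-Hochberg adjustment over all of them and a threshold of 0.05.

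In old mice, 7 ribosomal protein genes were counted at a higher level in KO libraries than in WT libraries, and 4 at a lower level. The genes that rose were Rpl15, Rps6, Rpl39, Rpl22l1, Rpl31, Rps3a and Rps20, and those that fell were Rpl30, Rpl3, Rpl41 and Rpl10a. Among all genes tested 16.7% passed, 9.52% rose and 7.21% fell, so the members' 8.86% and 5.06% were not above the background. Their median log2 fold change was -0.11, against -0.01 for all genes, and the interquartile range of the members was 0.58 on the log2 scale, against 0.71 for all genes. The groups of 3 did not overlap in 14 members with KO higher (17.7%, against 21.6% of all genes) and in 19 with KO lower (24.1%, against 20.4% of all genes).

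Rpl15 is a protein of the core of the large subunit, and loss of 1 copy of its gene is known in a human anaemia. It had 48.5, 48.4 and 58.4 CPM in old KO libraries against 24.1, 19.1 and 23.0 CPM in old WT libraries. All KO values lay above all WT values, and the log2 fold change was 1.22 ± 0.19 (SE, adjusted p = 0.00235, edgeR). Rps6, the small-subunit protein that S6 kinase phosphorylates downstream of mTORC1, had 24.2, 18.2 and 23.2 CPM in old KO libraries against 12.7, 9.44 and 13.0 CPM in old WT libraries. The groups were again separate, with a log2 fold change of 0.89 ± 0.21 (SE, adjusted p = 0.0135, edgeR). Rpl39 had 308, 238 and 309 CPM in old KO libraries against 150, 172 and 179 CPM in old WT libraries, a log2 fold change of 0.77 ± 0.20 (SE, adjusted p = 0.0232, edgeR). Every KO library stood above every WT library for this tunnel protein too.

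Rps3a and Rps20 are small-subunit proteins, and Rpl31 sits beside the tunnel exit of the large subunit. Rps3a had 166, 148 and 169 CPM in old KO libraries against 106, 99.1 and 99.4 CPM in old WT libraries (log2 fold change 0.66). Rps20 had 378, 324 and 350 CPM in old KO libraries against 230, 210 and 252 CPM in old WT libraries (log2 fold change 0.60). Rpl31 had 37.9, 28.0 and 41.0 CPM in old KO libraries against 18.03, 22.7 and 24.4 CPM in old WT libraries (log2 fold change 0.70). The KO range lay above the WT range for all 3 genes.

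The members that fell in old KO libraries all belong to the large subunit. Rpl3, a protein close to the peptidyl transferase centre, had 88.6, 50.1 and 55.5 CPM in old KO libraries against 127, 116 and 150 CPM in old WT libraries, and its log2 fold change was -1.02 ± 0.24 (SE, adjusted p = 0.0159, edgeR). Rpl41 had 129, 144 and 139 CPM in old KO libraries against 262, 184 and 290 CPM in old WT libraries (log2 fold change -0.84 ± 0.21, adjusted p = 0.019, edgeR). Rpl10a, which forms the stalk beside the exit site for transfer RNA, had 17.1, 15.8 and 14.2 CPM in old KO libraries against 22.6, 30.01 and 25.1 CPM in old WT libraries (log2 fold change -0.71 ± 0.16, adjusted p = 0.00995, edgeR). In all 3 genes the highest KO library was below the lowest WT library. Rpl30 was counted at 0.751, 0.803 and 0.291 CPM in old KO libraries against 4.18, 1.69 and 2.25 CPM in old WT libraries; these are few reads, and its log2 fold change of -1.99 had the wide error of 0.53 (SE, adjusted p = 0.0235, edgeR).

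These counts changed when single libraries were left out, and so did those of all genes. Without old KO replicate 3, in which Lars2 took 25.0% of the gene counts, only Rpl15 passed among the members, and 5.52% of all genes did. Without old WT replicate 1, 2 or 3 the number of members was 4, 5 or 7, and the share of all genes was 6.77%, 7.57% or 8.98%. Scaled by library size alone, which moved the median of all genes by -0.25 on the log2 scale, 1 member rose and 10 fell, while among all genes 359 rose and 1827 fell. With upper-quartile factors 7 members rose and 7 fell, while among all genes 1021 rose and 1268 fell.

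**Figure D2:**
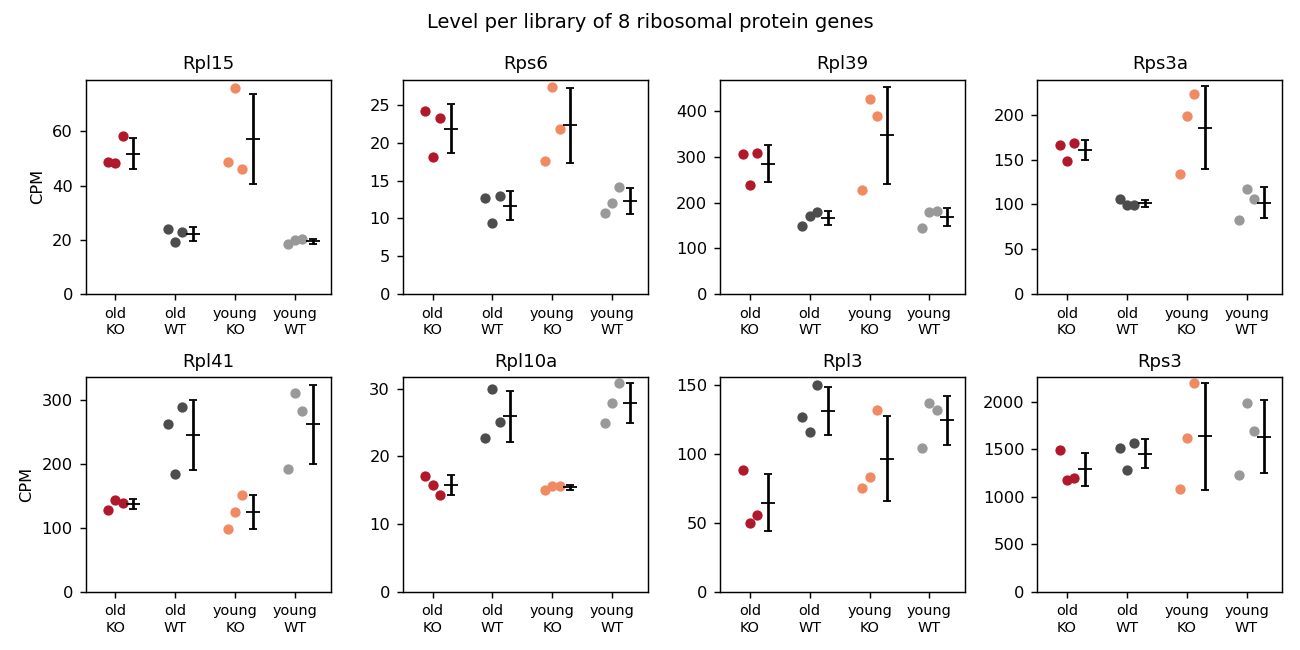
CPM on a linear axis from 0 in each library for 8 members, with old KO, old WT, young KO and young WT from left to right; coloured points are libraries and the black mark is the mean ± SD of 3. The upper row and the first 3 panels of the lower row show members that differed between KO and WT at 1 or both ages, and Rps3 in the last panel overlaps between all groups.

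In young mice, 10 members rose and 3 fell in KO libraries relative to WT libraries. Those that rose were Rpl15, Rpl10, Rpl39, Rps3a, Rps6, Rpl22l1, Rps15a, Rpl31, Rps20 and Rpl27a, and those that fell were Rpl41, Rpl10a and Rpl29. Among all genes 20.9% passed, 10.9% rose and 10% fell, against 12.7% and 3.8% of the members. The median log2 fold change of the members was 0.02, against -0.02 for all genes. The groups did not overlap in 12 members with KO higher (15.2%, against 16% of all genes) and in 6 with KO lower (7.59%, against 19.6%).

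Rpl15 had 48.8, 76.1 and 46.2 CPM in young KO libraries against 18.3, 19.8 and 20.1 CPM in young WT libraries. Every KO library was above every WT library, and the log2 fold change was 1.56 ± 0.19 (SE, adjusted p = 0.00057, edgeR). Rpl39 had 227, 427 and 389 CPM in young KO libraries against 145, 179 and 181 CPM in young WT libraries (log2 fold change 1.05 ± 0.21, adjusted p = 0.00382, edgeR). Rps3a had 134, 199 and 224 CPM in young KO libraries against 82.9, 117 and 106 CPM in young WT libraries (log2 fold change 0.86 ± 0.18, adjusted p = 0.00479, edgeR). Replicate 1 was the lowest of the young KO libraries for both of these genes and still stood above all WT libraries. Rps6 had 17.7, 27.5 and 21.9 CPM in young KO libraries against 10.7, 12.04 and 14.2 CPM in young WT libraries (log2 fold change 0.86 ± 0.21, adjusted p = 0.0118, edgeR).

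Rpl10, which joins the large subunit late in its maturation, passed in young mice with 11.5, 9.11 and 6.96 CPM in KO libraries against 4.03, 5.25 and 4.25 CPM in WT libraries (log2 fold change 1.06 ± 0.25, adjusted p = 0.00917, edgeR). In old mice it had 11.3, 7.49 and 9.30 CPM in KO libraries against 5.84, 5.66 and 6.13 CPM in WT libraries, which did not overlap but did not pass (log2 fold change 0.66 ± 0.24, adjusted p = 0.0756, edgeR). The small-subunit protein Rps15a averaged 234 ± 36.7 CPM in young KO libraries and 144 ± 24.8 CPM in young WT libraries (SD, n = 3 each; log2 fold change 0.70). Rpl27a averaged 86.8 ± 17.5 CPM in young KO libraries and 57.8 ± 4.97 CPM in young WT libraries (SD, n = 3 each; log2 fold change 0.58).

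Rpl41 had 98.5, 126 and 152 CPM in young KO libraries against 192, 312 and 283 CPM in young WT libraries (log2 fold change -1.07 ± 0.21, adjusted p = 0.00404, edgeR). Rpl10a had 15.0, 15.7 and 15.7 CPM in young KO libraries against 24.9, 27.9 and 30.8 CPM in young WT libraries (log2 fold change -0.85 ± 0.16, adjusted p = 0.00269, edgeR). The KO libraries were the low ones throughout for both genes. Rpl29, a large-subunit protein also known for binding heparin, had 3.48, 5.01 and 5.22 CPM in young KO libraries against 7.18, 7.25 and 8.82 CPM in young WT libraries (log2 fold change -0.79 ± 0.24, adjusted p = 0.0342, edgeR). Rpl29 lost its call without any of the 3 young WT libraries, without young KO replicate 1 or 2, and without old KO replicate 1 or 3. Rpl31 lost its call without any young WT library or young KO replicate 2, and Rps20 and Rps15a lost theirs without young WT replicate 1 or young KO replicate 2. Rpl27a did so without young WT replicate 1 and Rpl22l1 without young WT replicate 2. Scaled by library size alone, 6 members rose and 4 fell in young KO libraries, while among all genes 865 rose and 1278 fell.

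**Figure D3:**
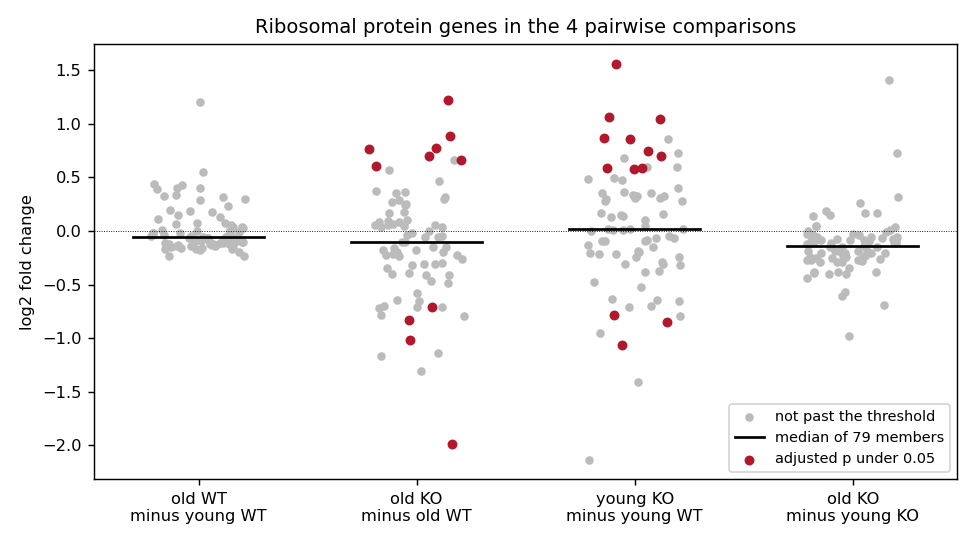
Log2 fold change of the 79 tested members in the 4 pairwise comparisons; each point is a gene, red where the adjusted p was under 0.05 (edgeR), and the black line is the median of the members. Red points stand on both sides of 0 in the 2 comparisons of KO with WT and are missing from the 2 comparisons of old with young.

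The groups compared in old and in young mice share no library, but both comparisons came from 1 fit over all 12 libraries. They therefore share an estimate of the spread. The 7 members that rose in old KO libraries were all among the 10 that rose in young KO libraries (100% of the old list and 70% of the young list). Rpl41 and Rpl10a fell at both ages, which is 50% of the 4 that fell in old KO libraries and 66.7% of the 3 that fell in young ones. Together 15 members passed at 1 or both ages and 9 at both. The sign of the KO effect was the same at both ages in 64 of the 79 members. The rank correlation of the 2 effects across these members was 0.88 (Spearman's rho, across genes). Neither these figures nor the overlap of calls was computed over all genes, so agreement particular to the members is not shown.

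In all 15 members most stretches of 50 bases in the coding sequence recurred in other annotated genes, chiefly pseudogenes. Unshared stretches made up at most 16.7% of them, the value of Rpl30, and Rpl15, Rps6, Rpl31, Rpl10, Rpl27a and Rpl41 had none. Untranslated parts, whose reads were counted too, did not enter this measure. Stretches of Rpl15 recurred in 23 pseudogenes, those of Rps6 in 14, those of Rpl29 in 81. In old mice 4 of the 26 tested members with no unshared stretch and 7 of the 31 with under 20% passed, against 0 of 9 with 20 to 50% and 0 of 13 with 50% or more. In young mice the numbers were 6 of 26, 7 of 31, 0 of 9 and 0 of 13. Among all genes tested 16.7% passed in old mice and 20.9% in young mice. At such shares few calls are to be expected in classes of 9 or 13, and a difference between the classes was not tested. The median SE of the log2 fold change in old mice was 0.29 without unshared stretches and 0.21 in each other class. Alignments that were not unique were set aside in the deposited files, at 1.27 to 7.54 per read assigned to a gene. A read that aligned to several places may be counted more than once in this figure. The part of such reads in these differences was not tested.

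Among members whose sequence is mostly their own, the values overlapped between genotypes. Rps3 had 1491, 1177 and 1202 CPM in old KO libraries against 1517, 1285 and 1569 CPM in old WT libraries, and its log2 fold change of -0.18 had a 95% confidence interval of -0.69 to 0.33. In young mice it had 1084, 1626 and 2203 CPM in KO libraries against 1226, 1993 and 1690.0 CPM in WT libraries (log2 fold change 0.00, 95% confidence interval -0.51 to 0.51). These intervals leave room for a change smaller than 2-fold. Rpl4, whose loop reaches into the exit tunnel, averaged 1461 ± 188 CPM in old KO libraries and 1565 ± 89.3 CPM in old WT libraries (SD, n = 3 each; log2 fold change -0.10). Rpl8 had log2 fold changes of 0.18 in old mice and 0.16 in young mice, with adjusted p of 0.568 and 0.604 (edgeR).

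The size of the KO effect also followed the GC content of the transcript, taken from 1 chosen transcript per gene. Across the 79 members the rank correlation of the log2 fold change with the GC content of the transcript was -0.34 in old mice and -0.41 in young mice (Spearman's rho, across genes). With the GC content of the coding sequence alone the correlation was weaker, -0.16 in old and -0.31 in young mice. Rpl22l1, with 40.6% transcript GC, Rps20 with 41.3% and Rpl15 with 43.2% lay at the low end and rose, and Rpl41 with 56.3% and Rpl10a with 54.2% fell. In the coding sequence Rpl22l1 had 39.6% GC, Rps20 48.6%, Rpl15 53.3%, Rpl41 51.3% and Rpl10a 53.5%. Offsets were then set to remove the trend with transcript GC content in each library. By that design the correlations with transcript GC content shrank, to -0.02 and -0.02. In old mice 4 members then passed, against 7.28% of all genes: Rpl15, Rpl39 and Rps6 rose and Rpl3 fell. In young mice 9 passed, against 5.86% of all genes: among those that rose were Rpl15, Rpl10, Rpl39, Rps6, Rps3a and Rpl18, and Rpl41 and Rpl10a fell. Rps20 lost most of its difference, with log2 fold changes of 0.16 in old and 0.03 in young mice, and so did Rpl22l1, with 0.27 and 0.13. Rpl15 kept 0.91 and 1.15, and Rps6 kept 0.91 and 0.87.

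**Figure D4:**
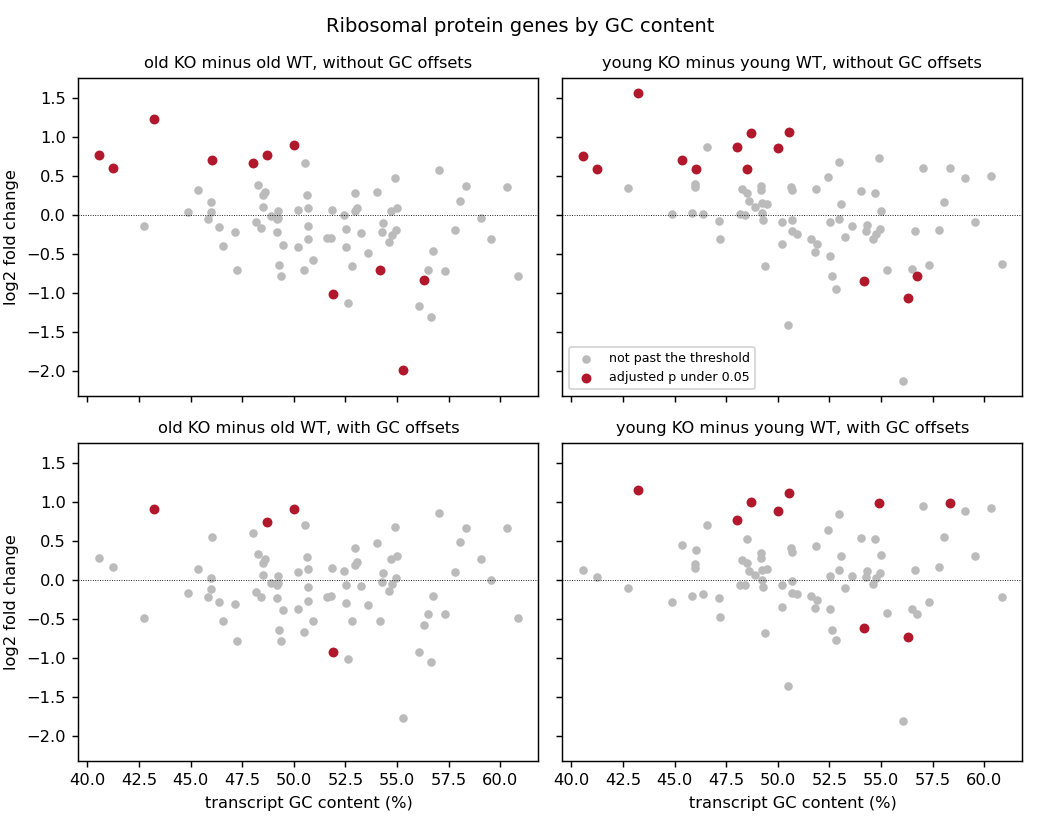
Log2 fold change of the 79 tested members against the GC content of the transcript (%), for KO minus WT in old mice (left) and young mice (right), without (top) and with (bottom) offsets for GC content; red marks an adjusted p under 0.05 (edgeR). The upper panels slope downward (Spearman's rho -0.34 and -0.41). The offsets remove this trend by design, so the lower panels (-0.02 and -0.02) are no test of it. In the lower panels 4 and 9 members passed, against 7.28% and 5.86% of all genes.

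By role, the small subunit had 3 of 29 tested members that rose and 0 that fell in old KO libraries, and 4 that rose and 0 that fell in young KO libraries. The large subunit had 3 that rose and 4 that fell among 42 in old KO libraries, and 5 that rose and 3 that fell in young ones. None of the 3 stalk proteins passed. Among all genes 9.52% rose and 7.21% fell in old KO libraries, and 10.9% rose and 10% fell in young KO libraries. Rplp1 averaged 785 ± 91.1 CPM in old KO libraries and 1293 ± 253 CPM in old WT libraries (SD, n = 3 each), with no overlap, but its log2 fold change of -0.72 missed the threshold (adjusted p = 0.0539, edgeR), and so did -0.64 in young mice (adjusted p = 0.0712, edgeR). Under DESeq2 Rplp1 passed in both comparisons. Rplp0, the base of the stalk, had log2 fold changes of 0.05 and -0.05, and Rplp2, the partner of Rplp1, 0.09 and 0.04. Rpl5 and Rpl11, which carry the smallest ribosomal RNA and can bind Mdm2, did not pass: Rpl11 had log2 fold changes of 0.27 in old and 0.68 in young mice, and Rpl5 -0.15 and 0.34.

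Paralogues were set beside the genes they resemble. Rpl22l1, which can take the place of Rpl22, had 58.4, 51.5 and 59.3 CPM in old KO libraries against 30.9, 30.4 and 37.9 CPM in old WT libraries (log2 fold change 0.77 ± 0.18, adjusted p = 0.0145, edgeR). It had 44.0, 69.2 and 56.1 CPM in young KO libraries against 28.0, 32.2 and 40.4 CPM in young WT libraries (log2 fold change 0.75 ± 0.18, adjusted p = 0.0121, edgeR). KO libraries were above WT libraries at both ages. Rpl22 had log2 fold changes of -0.04 in old and 0.15 in young mice, neither of which passed, and the difference between the pair was not tested. Rpl7l1 had log2 fold changes of -0.05 and 0.37, and its relative Rpl7 -0.06 and 0.02, with no call. Rps27l, which is known as a p53 target, averaged 60.6 ± 6.53 CPM in old KO libraries and 59.0 ± 9.43 CPM in old WT libraries (SD, n = 3 each), where Rps27 had 0 reads. Rpl36al averaged 30.6 ± 0.85 CPM in old KO libraries and 29.3 ± 3.11 CPM in old WT libraries, whereas Rpl36a stood at 1.22 ± 0.461 and 1.49 ± 0.435 CPM (SD, n = 3 each). Rpl3l stayed at 2.01 CPM or less in every library.

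Ageing left no called difference. Comparing old with young WT libraries, 0 of 79 members passed, where 1.06% of all genes did (0.258% higher and 0.805% lower in old mice). DESeq2 and limma-voom called 0 members, against 3.41% and 7.41% of all genes. In edgeR 1918 of the 13540 genes had an unadjusted p under 0.05, among them 1 member. That member was Rpl36a, with 1.78, 0.994 and 1.70 CPM in old WT libraries against 0.873, 0.617 and 0.401 CPM in young WT libraries (log2 fold change 1.21, adjusted p = 0.302, edgeR). Its groups did not overlap, but the level corresponds to few reads. The median log2 fold change of the members was -0.06 and their interquartile range was 0.19 on the log2 scale, against 0.43 for all genes. The 95% confidence interval lay within a 2-fold change in either direction for 68 of the 79 members. Old WT libraries were above young WT libraries without overlap in 5 members (6.33%, against 13.1% of all genes) and below in 0 (against 13.8%).

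Between old and young KO libraries 0 of 79 members passed, where 0.0148% of all genes did (0.0148% higher and 0% lower in old mice). DESeq2 and limma-voom called 0 members, against 1% and 0.155% of all genes. In edgeR 1316 of the 13540 genes had an unadjusted p under 0.05, among them 1 member. That member was Rpl3, with 88.6, 50.1 and 55.5 CPM in old KO libraries against 75.0, 83.0 and 132 CPM in young KO libraries (log2 fold change -0.57, adjusted p = 0.486, edgeR), whose groups overlapped. The members' median log2 fold change was -0.14, against -0.01 for all genes, and 13 members had a positive one. The interval lay within 2-fold for 61 members. Groups did not overlap in 2 members with old KO lower (2.53%, against 5.22% of all genes), Rpl30 and Rps27a, and in 0 with old KO higher (against 6.37%). When the effect of age in KO libraries was set against that in WT libraries, 0 members passed, where 0.0148% of all genes did (0.00739% in each direction). DESeq2 and limma-voom called 0 members, against 0.428% and 0.0295% of all genes. In edgeR 0 members had an unadjusted p under 0.05, against 1316 of the 13540 genes. For Rpl3 and Rpl30, which passed in old but not in young mice, this difference between the KO effects was -0.65 ± 0.34 and -1.28 ± 0.73 on the log2 scale (SE, adjusted p = 0.575 and 0.601, edgeR), and for Rpl10, which passed in young but not in old mice, it was -0.40 ± 0.34 (SE, adjusted p = 0.737, edgeR).

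Rpl17 varied between libraries without regard to group. It had 8.41, 64.2 and 9.88 CPM in old KO libraries, 66.3, 65.7 and 10.2 CPM in old WT libraries, 52.5, 8.73 and 14.9 CPM in young KO libraries and 7.91, 81.8 and 11.0 CPM in young WT libraries. Each group held at least 1 library above 52 CPM and at least 1 below 15, with none between. The pooled SD within groups was 1.56 on the log2 scale, the widest of all members and the ninth widest of the 9055 genes with a mean of 10 CPM or more. The next member, Rpl28, reached 0.76 at a mean of 1.81 CPM. Rpl17 has no 50-base stretch of its own and shares stretches with 50 pseudogenes.

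**Figure D5:**
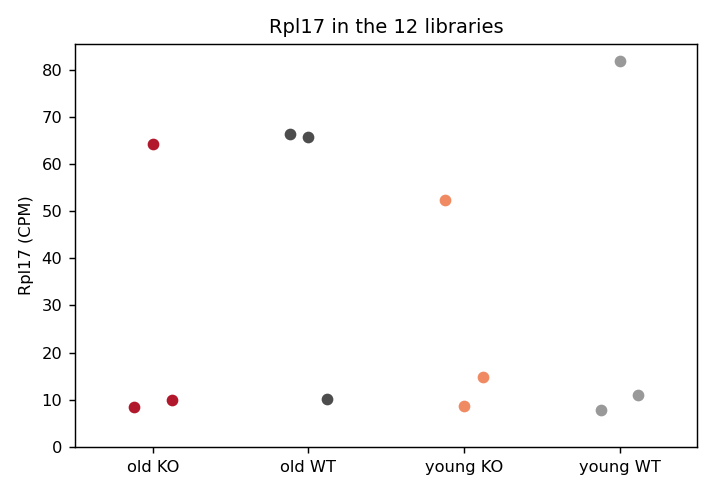
Rpl17 in CPM (linear axis from 0) in each of the 12 libraries, with old KO, old WT, young KO and young WT from left to right. The values form a band of 7 libraries between 7.91 and 14.9 CPM and a band of 5 between 52.5 and 81.8 CPM, and every group has libraries in both.

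Genes that work with the ribosomal proteins were read from lists. The background for these and all later lists is the share of all genes tested. In old KO libraries 9.52% of all genes rose and 7.21% fell, and in young KO libraries 10.9% rose and 10% fell. Of 39 tested genes of ribosome biogenesis and RNA polymerase I, 2 rose and 2 fell in old KO libraries, and 4 rose and 2 fell in young KO libraries. Among them Rrn3, an initiation factor of RNA polymerase I, rose at both ages (log2 fold change 0.60 and 0.69), as did Nmd3, the export adapter of the large subunit (0.68 and 0.67). Of 73 mitochondrial ribosomal protein genes, 1 rose and 4 fell in old KO libraries, and 1 rose and 9 fell in young ones. Mrpl12, which also binds the mitochondrial RNA polymerase, fell at both ages (-0.97 and -1.61). Of 22 translation factors, 1 rose and 2 fell in old and 2 rose and 2 fell in young KO libraries, with Eif4a2 up at 0.60 and 0.80 and Naca down at -0.57 and -0.49. The 3 ribosomal proteins with other names had 0 that rose and 1 that fell in old KO libraries, Fau at -1.47, and 0 that passed in young ones.

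Of 24 regulators of mTORC1 and of pyrimidine-tract mRNAs, 0 rose and 4 fell in old KO libraries, and 3 rose and 4 fell in young ones. Larp1, which binds the pyrimidine tract, fell in old KO libraries (-0.59), and Rps6kb2, an S6 kinase, fell at both ages (-0.71 and -0.71), while Rps6kb1, the other S6 kinase, rose in young KO libraries (0.63). In the list of 12 genes of p53 surveillance, 3 rose and 2 fell in old KO libraries and 3 rose and 4 fell in young ones. Trp53 fell at both ages (-1.28 and -1.24), and so did its target Cdkn1a (-1.05 and -0.92), while another target, Ccng1, rose (0.83 and 0.61). Of 6 hosts of small nucleolar RNAs, 0 rose and 2 fell in old KO libraries and 1 rose and 0 fell in young ones.

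Markers of other cells moved with genotype as well, where 16.7% of all genes passed in old mice and 20.9% in young mice. All 8 choroid plexus markers fell in old KO libraries and 7 of 8 fell in young ones; their summed level was 12.9 to 30.1 CPM in KO libraries and 114 to 6053 CPM in WT libraries, and Ttr was at 0 in all KO libraries. Tendon markers had 6 of 8 that rose in old KO libraries, and 1 that rose and 1 that fell in young ones. Macrophage markers had 0 of 13 that rose and 4 that fell in old KO libraries, with a summed level of 21.4 to 101 CPM against 167 to 193 CPM in old WT libraries, and 0 that passed in young ones. In the satellite cell list 1 of 12 rose and 2 fell in old KO libraries, and 0 rose and 4 fell in young ones, with a summed level of 6791 to 10430 CPM over all libraries. Fibroblast markers had 2 of 10 that rose in old KO libraries and 1 that rose and 2 that fell in young ones. Pericyte markers had 4 of 9 that rose in old KO libraries and 1 that fell in young ones, neutrophil markers 3 of 6 that rose and then 1 that fell, and erythroid markers 0 of 3 and then 3 that fell. None of the 10 endothelial and 12 muscle fibre markers passed at either age. The part of these cells in the values of the ribosomal protein genes was not tested.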

How the data were processed

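RNA was measured in 12 libraries prepared, per the labels' protocols, with a stranded total RNA kit after removal of ribosomal RNA. The deposited files hold raw counts of reads per gene symbol, not normalized. TopHat, HTSeq and DESeq2 and the genome build mm9 are named, per the submitters' processing notes; versions, read length and the strand setting are not given in the sources used here. Rows without a gene name were kept out of the totals: reads outside genes were 32.2% to 70.8% of the reads aligned to 1 place and ambiguous reads 0.433% to 1.37%.

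From the counts, edgeR 4.0.16 (R 4.3.3) computed TMM factors, a filter on low counts and robust quasi-likelihood tests with 1 mean per group. Levels are CPM on TMM-scaled library sizes. A floor of 3 counts corresponded to between 0.148 and 0.715 CPM per library, which covers counting error only. Alternatives used limma 3.58.1, DESeq2 1.42.0, other scalings, filters and libraries, and spline offsets for GC content and length. GC content, lengths and shared 50-base stretches came from GENCODE M21 (GRCm38), not the files' build, and covered 92.3% of genes and all 81 members. Shared stretches were searched over annotated transcripts only. The tests were tested on simulated data. Changed members are named with the leading members by level, stalk proteins, Rpl5, Rpl11 and paralogues; from each list, examples. A few genes and their values are not reported here. Rpl17 was singled out after its values were seen. Members and lists were chosen with earlier results of these data known.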

Additional observations from a re-analysis of the deposited data

How the results depend on the processing

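The count of members called between old KO and old WT libraries, 11, changed by more than 1.5 times under 12 of 28 alternatives. It was 21 (10 higher, 11 lower) with limma-voom and sample weights, which called 31.1% of all genes. A fit of the compared groups alone gave 19 (10 higher, 9 lower) and called 24.3% of all genes. With GC offsets the count was 4, against 7.28% of all genes, and with GC and length offsets 5, against 9.56%. The replicate block with both offsets gave 6, against 6.6% of all genes. Leaving out 1 library gave 1 to 14, while 5.52% to 22.3% of all genes passed. Without old KO replicates 2 and 3, where the lone library is assumed to vary like the other groups, only effect sizes are given. The median log2 fold change of the members was then 0.05, against -0.07 for all genes. The count was 0 without old WT replicate 2 and old KO replicate 3, and 3 without young KO replicate 2 and old KO replicate 3. Without old WT replicate 2 and old KO replicate 3, 0.0217% of all genes passed, and without young KO replicate 2 and old KO replicate 3, 6.58%. Between young KO and young WT libraries 13 members were called. Leaving out 1 library gave 9 to 18, while 10.5% to 22.3% of all genes passed. Leaving out young KO replicate 2 and old KO replicate 3 gave 7, against 8.23% of all genes. The other alternatives gave 9 to 19, against 4.7% to 24.6% of all genes. DESeq2 called 14 (7 higher, 7 lower) in old mice and 17 (12 higher, 5 lower) in young mice. It called 20.3% and 24.6% of all genes. The cause of these shifts was not tested, beyond the fewer libraries that some fits held. Replicate numbers were not taken as pairs. The deviations of same-numbered libraries did not all correlate, but with 3 libraries per group this cannot decide whether they were paired. With the replicate block alone 11 members were called in old and 12 in young mice, against 13.1% and 17.7% of all genes. Counts for age, and for its difference between genotypes, were 0 in all 28 alternatives. Of all genes, 0.0145% to 7.41% passed in these alternatives for age in WT libraries. For age in KO libraries the share was 0% to 1%, and for the difference between genotypes 0% to 0.823%. No called log2 fold change turned its direction. Rpl15, Rpl10, Rpl39, Rpl41 and Rps3a passed in young mice under all 28 alternatives, Rpl15 in old mice under 26 and Rps6 under 23. Depth limits Rpl30, Rpl36a and Rpl3l.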
